A study of Homo sapiens with 24 samples.

Results

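The 10 genes described here encode the EGFR family of receptors and ligands: the receptors EGFR, ERBB2 and ERBB3, the intracellular receptor inhibitor ERRFI1, and the ligands AREG, EREG, HBEGF, TGFA, BTC and EPGN. They were chosen by name as members of the pathway, and all 10 of the 10 passed the filter on low counts that left 17409 of 37411 genes for testing. The cells were PC9, a human line from a lung adenocarcinoma that carries an activating deletion in the kinase domain of EGFR. RNA was sequenced from cells kept in RPMI 1640 without asparagine (−Asn) and with 200 nM ISRIB, without asparagine and with vehicle (0.004% DMSO), with asparagine (+Asn) and ISRIB, or with asparagine and vehicle, each for 24 h or 6 h. Each of the 8 groups had 3 biological replicates, 24 libraries in all. Every group, the +Asn vehicle group included, was rinsed and given its medium anew at the start of treatment, so the time is also the time since the medium was replaced. All libraries come from 1 cell line.

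EGFR family ligands are made as membrane-bound precursors that proteases cut loose, and they bind EGFR, which then pairs with itself or with ERBB2 or ERBB3 and signals through the RAS-ERK and PI3K-AKT pathways. AREG, EREG, HBEGF and TGFA are themselves transcriptional targets of ERK signalling, so that a cell can feed its own receptor, and ERRFI1 (also called MIG6) is an induced inhibitor that binds the kinase domain of the active receptor. Asparagine shortage activates the kinase GCN2, which phosphorylates the translation factor eIF2 and raises the transcription factor ATF4. ISRIB binds the exchange factor eIF2B and blunts this integrated stress response.

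Library totals ran between 16737384 and 27495861 counts. The TMM factors ran between 0.902 and 1.08. ASNS, the enzyme that makes asparagine and a target of ATF4, matched the medium labels of the vehicle libraries at 6 h. It lay between 151 and 175 CPM (reads relative to the TMM-scaled library total) in −Asn and between 26.7 and 30.8 CPM in +Asn vehicle libraries. With ISRIB it lay between 22.8 and 28.9 CPM in −Asn and between 25.8 and 30.3 CPM in +Asn libraries. These overlapped, so ASNS could not check the medium of the ISRIB libraries at 6 h. At 24 h it lay between 54.6 and 59.4 CPM in −Asn and between 25.6 and 28.8 CPM in +Asn vehicle libraries. With ISRIB at 24 h it lay between 17.2 and 18.8 CPM in −Asn and between 20.8 and 23.7 CPM in +Asn libraries. There ASNS was lower without asparagine, the reverse of vehicle (edgeR adjusted p = 0.0549), and was not used as a check. All 8 epithelial markers were present, with EPCAM between 414.5 and 594 CPM, but MUC1 was low, between 5.32 and 12.1 CPM. Of 6 markers of other cell types, PTPRC, CD3E, COL1A2 and VWF reached at most 8, 2, 4 and 7 counts in any library. The other 2 had low levels, with COL1A1 between 3.45 and 14.1 CPM, a range that holds that of MUC1, and PECAM1 between 0.776 and 5.85 CPM. CPM of these cell type markers are relative to the library total without TMM scaling. The 3 libraries with the most negative slope of log2 level on GC content are called GC-skewed here. They were replicate 3 of −Asn ISRIB at 6 h (−0.35 per 10 GC points), and replicates 3 at 24 h (−0.37) and 1 at 6 h (−0.19) of +Asn ISRIB. The third was close to replicates 1 and 3 of −Asn vehicle at 24 h (−0.17 each). Calls that change without them are given with both values.

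The family was unevenly expressed. Per kilobase of exon, EGFR had the highest level, 117 CPM per kb averaged over the 24 libraries, followed by AREG at 55.2, TGFA at 48.8, ERRFI1 at 34.2 and HBEGF at 17.0 CPM per kb. ERBB3 stood at 9.19, EREG at 8.78, EPGN at 4.97, ERBB2 at 4.73 and BTC at 2.73 CPM per kb. This order pools groups that differ: in +Asn vehicle libraries at 24 h AREG averaged 9.80 CPM per kb, below TGFA at 23.5 and ERRFI1 at 22.3 and close to ERBB3 at 10.03 CPM per kb. In +Asn vehicle libraries at 6 h AREG averaged 62.5 and TGFA 64.9 CPM per kb, a difference within their spread (SD 21.6 and 7.61). With the longest transcript as the length in place of all exons, ERBB2 (9.90 CPM per kb) moved above EPGN (7.53 CPM per kb) and the other places were kept. The genes that varied most between libraries were 3 ligands: the highest library was 31.1 times the lowest for EREG, 28.0 times for HBEGF and 27.2 times for AREG, against 3.54 times for EGFR, 2.32 times for ERBB2 and 2.05 times for ERBB3. Of the other receptors and ligands of the family NRG1 had between 39 and 302 counts. ERBB4, NRG2, NRG3 and NRG4 had at most 5, 5, 2 and 9 counts in any library and were not tested, and EGF had between 51 and 103 counts.

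**Figure D1:**
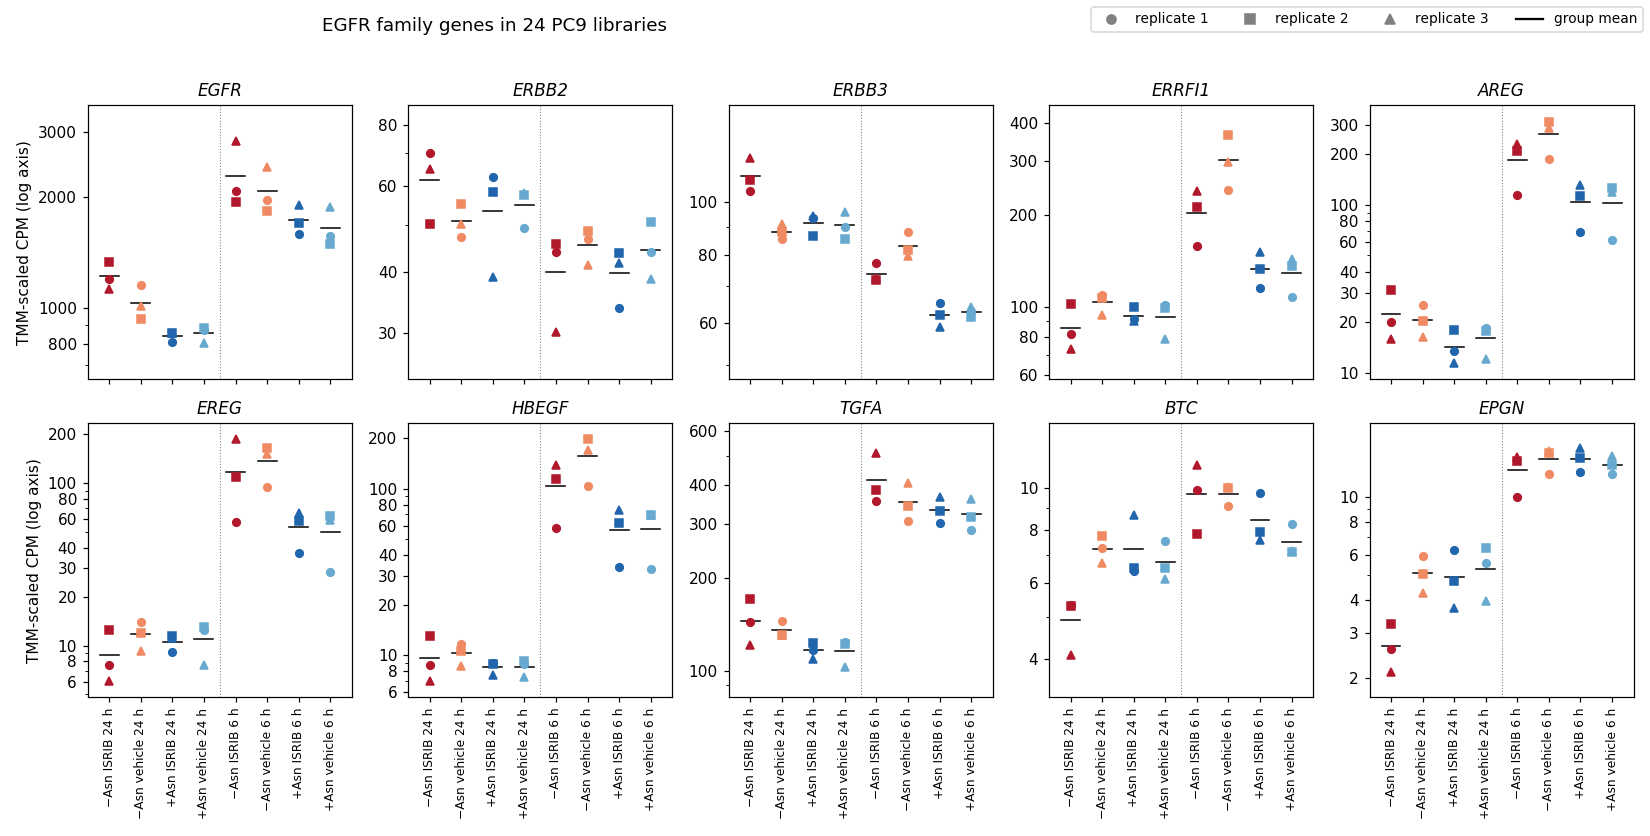
Each point is the TMM-scaled CPM (log axis) of a gene in 1 of 24 libraries, with replicate numbers by shape and group means as bars; 24 h groups stand left of the dotted line and 6 h groups right of it. All libraries at 24 h lie below all libraries at 6 h for EGFR, AREG, EREG, HBEGF, TGFA and EPGN, and the share of all genes separated so was not counted.

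4 of the ligands lie together on chromosome 4, where EPGN, EREG, AREG and BTC span 486214 bases (hg38). AREG (chr4:74445134-74455009), EREG (chr4:74365143-74388751) and EPGN (chr4:74308473-74315307) are on the plus strand, and BTC (chr4:74744759-74794686) is on the minus strand. EGFR is at chr7:55019021-55211628, ERBB2 at chr17:39687914-39730426, ERBB3 at chr12:56076799-56103505, ERRFI1 at chr1:8004404-8026308, HBEGF at chr5:140332843-140346631 and TGFA at chr2:70447280-70554193. Genes on the opposite strand overlap EGFR (EGFR-AS1), ERBB2 (MIEN1 and PGAP3) and ERRFI1 (AL034417.4). The strand setting of the counting is not given in the sources used here, so reads of these pairs may not be told apart.

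The 4 promoters below belong to the 4 genes with the largest increases on asparagine withdrawal, and are shown so that their starts can be compared. Each is the 150 bases before the RefSeq transcript start (GRCh38.p14), 5′ to 3′ on the gene's own strand: AREG at chr4:74444986-74445135 and EREG at chr4:74364995-74365144 on the plus strand, HBEGF at chr5:140346604-140346753 and ERRFI1 at chr1:8026310-8026459 on the minus strand. Capitals mark the cyclic AMP response element TGACGTCA, its core TGACG and the TATA box in the form TATAAA. Only this exact form was searched, and other forms are not marked. The ERRFI1 stretch holds an unmarked tatatata near its end.
AREG: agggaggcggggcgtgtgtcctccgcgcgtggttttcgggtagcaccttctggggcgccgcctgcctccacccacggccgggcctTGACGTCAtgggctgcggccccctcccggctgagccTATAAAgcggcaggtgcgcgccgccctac
EREG: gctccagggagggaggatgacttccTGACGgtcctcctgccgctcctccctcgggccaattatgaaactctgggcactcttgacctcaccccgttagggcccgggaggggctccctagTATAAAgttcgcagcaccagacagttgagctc
HBEGF: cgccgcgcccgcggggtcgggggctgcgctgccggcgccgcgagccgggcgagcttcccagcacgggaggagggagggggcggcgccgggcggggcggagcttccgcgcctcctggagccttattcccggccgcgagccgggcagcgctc
ERRFI1: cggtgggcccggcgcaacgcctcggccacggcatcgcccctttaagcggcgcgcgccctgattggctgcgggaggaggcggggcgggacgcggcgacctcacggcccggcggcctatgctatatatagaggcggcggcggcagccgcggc
Motifs were searched on both strands in the 250 bases before each start. TGACGTCA, which holds TGACG on either strand, was found for AREG, beginning 65 bases before the start, and is in 1.65% of all 35116 RefSeq promoters. TATAAA was found for AREG at 29, EREG at 32 and EPGN at 29 bases before the start and for the second of 2 EGFR promoters at 146 and 36, and is in 10.7% of promoters. TGACG outside TGACGTCA was found for EREG, TGFA and EPGN. TGACG in any place, TGACGTCA included, is in 21.2% of promoters. GGGCGG was found 5 times for HBEGF, 3 times for TGFA, 2 times for EGFR and 1 time each for AREG and ERRFI1, and 42.6% of promoters hold it. TGATGNAA, the composite element of C/EBP and ATF factors, was in none of the 11 promoters found for 9 of the 10 genes, and is in 3.14% of all promoters. TGANTCA, the AP-1 element, was found for EGFR and ERBB2, and is in 6.57% of promoters.

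Asparagine withdrawal for 6 h with vehicle raised 5 of the 10 genes: the ligands AREG, EREG and HBEGF, the inhibitor ERRFI1 and the receptor ERBB3. None of the 10 fell. Of all genes tested, 4.57% passed the same threshold of an adjusted p below 0.05. HBEGF, the heparin-binding ligand, had 103, 197 and 170 CPM in the −Asn libraries, against 32.8, 69.7 and 69.8 CPM in the +Asn libraries. All 3 −Asn values lay above all 3 +Asn values, and the fitted log2 change was 1.45 ± 0.32 (SE; edgeR quasi-likelihood test, Benjamini-Hochberg adjusted p = 0.00819). EREG (epiregulin) had 95.4, 166 and 152 CPM in −Asn libraries, against 28.5, 62.8 and 59.6 CPM in +Asn libraries, without overlap. Its log2 change was 1.45 ± 0.35, with an edgeR adjusted p of 0.0166. AREG (amphiregulin) had 187, 313 and 288 CPM in −Asn libraries and 62.1, 127 and 120 CPM in +Asn libraries. These groups did not overlap either, and the log2 change was 1.35 ± 0.31 with an edgeR adjusted p of 0.0105.

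ERRFI1 had 242, 365 and 298 CPM in −Asn vehicle libraries at 6 h, against 108, 136 and 144 CPM in +Asn vehicle libraries. Each −Asn library was above every +Asn library, and the log2 change was 1.22 ± 0.17 (edgeR adjusted p = 4.83e-05). ERBB3, the receptor with little kinase activity of its own that recruits PI3K, had 88.1, 81.5 and 79.6 CPM in −Asn libraries, against 62.9, 61.5 and 64.2 CPM in +Asn libraries. The groups were apart, with a small log2 change of 0.40 ± 0.07 and an edgeR adjusted p of 0.00166. The other 5 genes did not pass, with log2 values of 0.33 ± 0.13 for EGFR (adjusted p = 0.19), 0.37 ± 0.15 for BTC (0.22), 0.13 ± 0.14 for TGFA, 0.08 ± 0.18 for EPGN and 0.04 ± 0.17 for ERBB2. The median log2 change of the 10 genes was 0.39, and that of all genes was 0.01.

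In this fit, which leaves the replicate number out, the 3 ligand calls depended on single libraries. Without replicate 1 of the +Asn vehicle group the edgeR adjusted p was 0.0853 for AREG, 0.119 for EREG and 0.0671 for HBEGF, and without replicate 2 of the −Asn vehicle group it was 0.0589, 0.0809 and 0.0559. Without replicate 3 of the −Asn vehicle group it was 0.0653 for EREG. ERBB3 had an adjusted p of 0.058 when replicate 1 of all 4 groups at 6 h was left out.

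**Figure D2:**
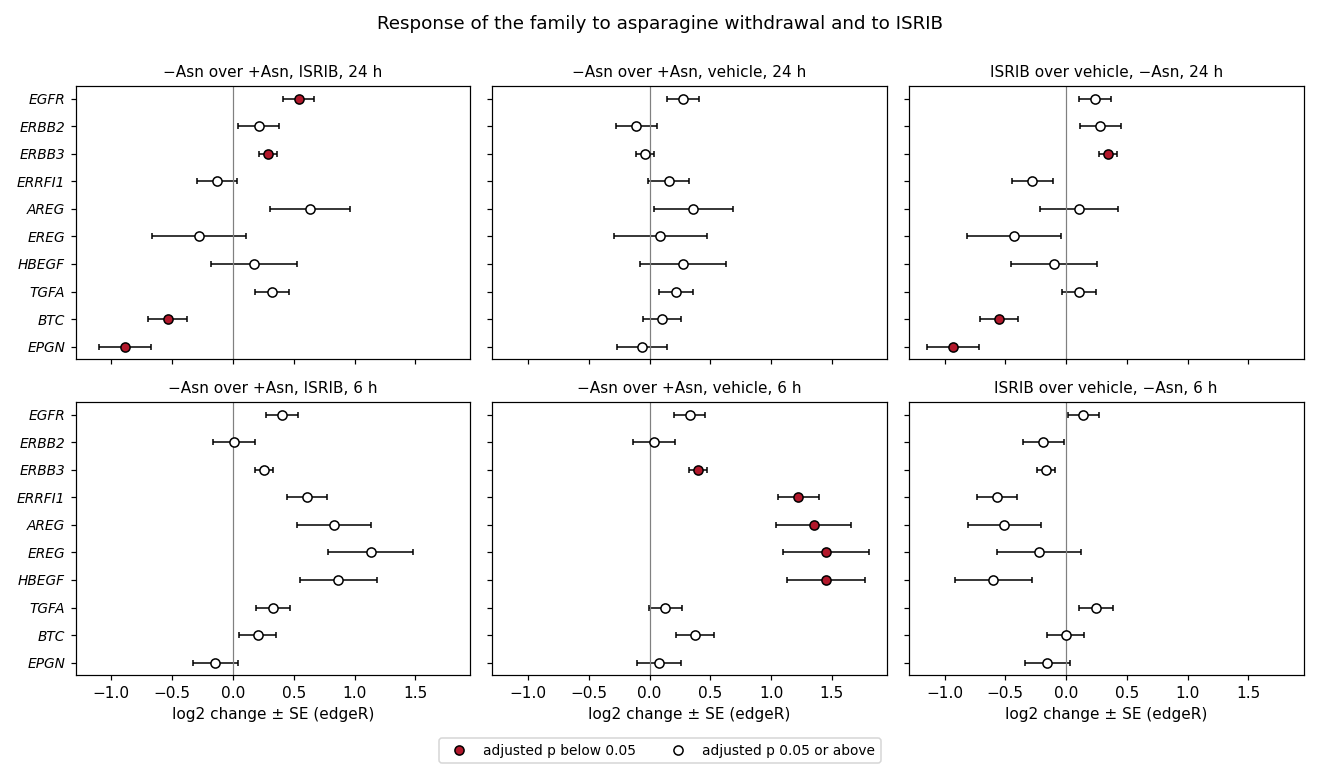
Log2 change ± SE of each gene (edgeR, 3 libraries a group) for −Asn over +Asn with ISRIB or vehicle and for ISRIB over vehicle without asparagine, at 24 h (top) and 6 h (bottom); filled points passed an adjusted p of 0.05. The 5 filled points of withdrawal with vehicle at 6 h are all above 0, and none is filled at 24 h.

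Libraries with the same replicate number moved together at 6 h. Replicate 1 had the lowest level in 4 of 4 groups for ERRFI1, AREG, EREG, HBEGF, TGFA and EPGN. For HBEGF, replicate 1 was between 0.462 and 0.563 times the mean of the other replicates, for AREG between 0.503 and 0.622 times and for EREG between 0.392 and 0.601 times. At 24 h, replicate 3 had the lowest level in 4 of 4 groups for ERRFI1, AREG, HBEGF, TGFA and EPGN, and in 3 of 4 for EREG. EGFR, ERBB2, ERBB3 and BTC had no replicate that was lowest in all 4 groups at either time. Within a number, the log2 ratio of −Asn vehicle to +Asn vehicle at 6 h was 1.65, 1.498 and 1.28 for HBEGF, 1.59, 1.30 and 1.26 for AREG, and 1.74, 1.40 and 1.35 for EREG. These ratios varied less than the levels did. With replicate 1 of the 4 groups left out, an alternative chosen after seeing the data, HBEGF had a log2 change of 1.39 ± 0.20 (edgeR adjusted p = 5e-04), AREG 1.28 ± 0.26 (0.00972) and EREG 1.37 ± 0.29 (0.0127).

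**Figure D3:**
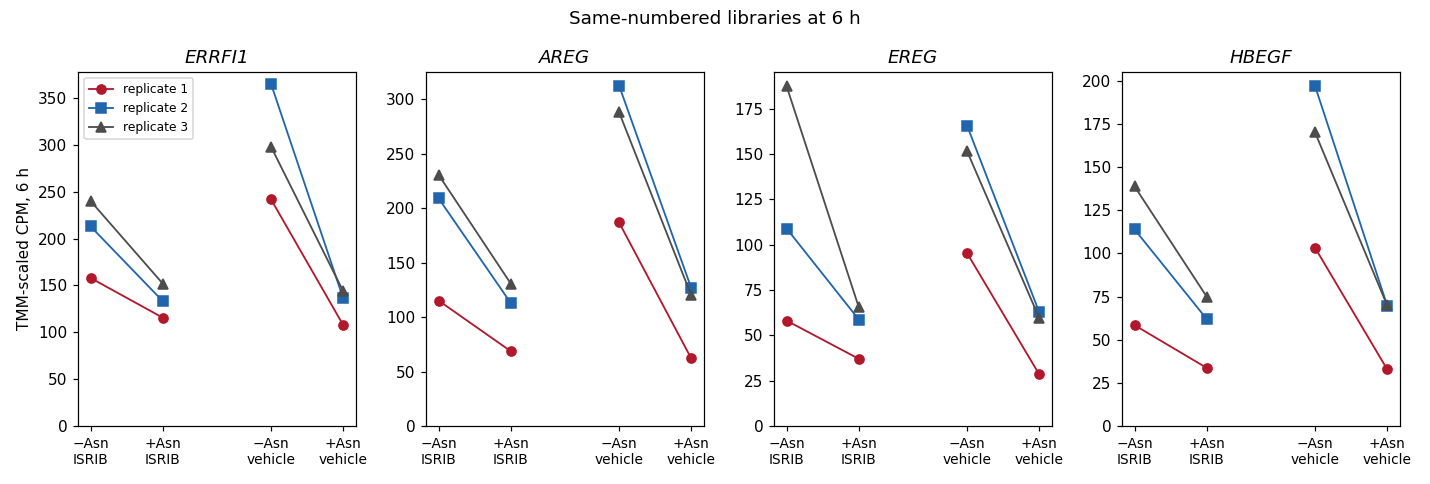
TMM-scaled CPM at 6 h of ERRFI1, AREG, EREG and HBEGF, with lines joining libraries of the same replicate number, −Asn left of +Asn, for ISRIB (left pair) and vehicle (right pair). Replicate 1 is lowest in every group, and every line is higher at its −Asn end.

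At 24 h with vehicle, 0 of the 10 genes differed between −Asn and +Asn cells in the edgeR test, 1 (EGFR) had an unadjusted p below 0.05, and DESeq2 called 0. Of all 17409 genes, 0.00574% passed in edgeR, 1271 had an unadjusted p below 0.05 and DESeq2 called 5. ERRFI1 had 110, 107 and 94.5 CPM in −Asn libraries, against 101, 99.4 and 78.6 CPM in +Asn libraries, and these overlapped. HBEGF averaged 10.3 ± 1.54 CPM in −Asn libraries and 8.52 ± 1.00 CPM in +Asn libraries (SD, n = 3 each). EGFR had 1153, 935 and 1014 CPM in −Asn libraries, against 874, 886 and 803 CPM in +Asn libraries. The EGFR groups did not overlap, and the log2 change was 0.28 ± 0.13 with an edgeR adjusted p of 0.671.

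The withdrawal response at 24 h was tested directly against that at 6 h. The difference passed for 2 of the 10 genes, against 1.22% of all genes. ERRFI1 had a difference of −1.07 ± 0.24 on the log2 scale (edgeR adjusted p = 0.0196), and ERBB3 had a difference of −0.44 ± 0.11 (adjusted p = 0.0376). For the ligands the differences were −1.37 ± 0.52 (EREG), −1.17 ± 0.48 (HBEGF) and −0.99 ± 0.45 (AREG), with edgeR adjusted p of 0.342, 0.416 and 0.521. This fit, which leaves the replicate number out, did not establish a smaller response of these ligands at 24 h. Within a number, the log2 ratio of EREG was 0.16, −0.11 and 0.28 at 24 h, against 1.74, 1.40 and 1.35 at 6 h. It was 0.40, 0.19 and 0.23 against 1.65, 1.498 and 1.28 for HBEGF. For AREG it was 0.46, 0.20 and 0.43 against 1.59, 1.30 and 1.26. The ratios were not tested. The ERRFI1 call was lost without 1 of 5 libraries, with adjusted p between 0.0605 and 0.0842: replicates 1 and 2 of +Asn vehicle at 24 h, replicate 3 of −Asn vehicle at 24 h, replicate 1 of +Asn vehicle at 6 h and replicate 2 of −Asn vehicle at 6 h. The ERBB3 call was lost without any 1 of 12 libraries, with adjusted p up to 0.133, at 0.236 without replicate 1 of the 4 groups at 6 h, and at 0.543 with no filter on low counts.

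With ISRIB at 6 h, none of the 10 genes passed for −Asn against +Asn in edgeR, although 7 had an unadjusted p below 0.05 and DESeq2 called 2, ERBB3 and ERRFI1. Of all 17409 genes, 2.3% passed in edgeR, 2219 had an unadjusted p below 0.05 and DESeq2 called 695. ERRFI1 had 158, 213 and 240 CPM in −Asn ISRIB libraries, against 116, 133 and 152 CPM in +Asn ISRIB libraries. The groups did not overlap, and the log2 change was 0.61 ± 0.17 (edgeR adjusted p = 0.056). EREG had 58.1, 109 and 187 CPM in −Asn ISRIB libraries, against 37.1, 58.7 and 65.5 CPM in +Asn ISRIB libraries, which overlapped. The log2 changes were 1.13 ± 0.35 for EREG, 0.87 ± 0.32 for HBEGF and 0.83 ± 0.31 for AREG, with edgeR adjusted p of 0.106, 0.196 and 0.201. The highest EREG library, replicate 3 of the −Asn ISRIB group, is one of the 3 GC-skewed libraries, and EREG has a GC content of 36.1%. EREG had a log2 value of 0.42 ± 0.33 (adjusted p = 0.7) without these 3 libraries and 0.93 ± 0.32 (0.0771) with GC correction. With GC correction EGFR (0.0398), ERBB3 (0.0304) and ERRFI1 (0.0337) passed. With replicate 1 of the 4 groups left out, ERRFI1 (adjusted p = 0.0406), EREG (0.0347) and HBEGF (0.0337) passed. Without replicate 1 of the −Asn ISRIB group alone, ERRFI1 (0.016) and EREG (0.0194) passed. ERRFI1 also passed without 1 of 3 libraries outside this comparison: replicate 3 of +Asn ISRIB at 24 h (0.0483) and replicates 1 (0.0463) and 2 (0.0469) of −Asn vehicle at 6 h.

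In −Asn cells at 6 h, 0 of the 10 genes passed for ISRIB against vehicle in the edgeR fit, which leaves the replicate number out. An unadjusted p below 0.05 was found for 2 (ERRFI1 and ERBB3), and DESeq2 called 1. Of all 17409 genes, 2.19% passed in edgeR, 1829 had an unadjusted p below 0.05 and DESeq2 called 554. ERRFI1 had 158, 213 and 240 CPM with ISRIB, against 242, 365 and 298 CPM with vehicle. The highest ISRIB library was just below the lowest vehicle library, and the log2 change was −0.57 ± 0.17 with an edgeR adjusted p of 0.0853. With the replicate number as a block, ERRFI1 had a log2 change of −0.56 ± 0.15 and an edgeR adjusted p of 0.0442. This block fits 1 shift per number over all 24 libraries, so it is not a pairing within 6 h. The lowest replicate of ERRFI1 was 1 at 6 h and 3 at 24 h, in 4 of 4 groups at each time. Without the 3 GC-skewed libraries ERRFI1 changed by −0.69 ± 0.17, with an adjusted p of 0.0178. It also passed without replicate 3 of the −Asn ISRIB group (0.0419) or replicate 1 of the −Asn vehicle group (0.0438). The log2 values were −0.60 ± 0.31 for HBEGF, −0.51 ± 0.30 for AREG and −0.22 ± 0.34 for EREG, none of them past the threshold. Within a number, the log2 ratio of ISRIB to vehicle was −0.82, −0.79 and −0.29 for HBEGF and −0.70, −0.58 and −0.32 for AREG. It was −0.61, −0.78 and −0.31 for ERRFI1 and −0.71, −0.61 and 0.31 for EREG. EGFR and TGFA were higher with ISRIB within each number. The number pairs the samples here, but the ratios were not tested. The fit without it does not show that the ligands were unchanged. ASNS fell by 2.64 ± 0.10 on the log2 scale in the same comparison (edgeR adjusted p = 3.47e-13). This comparison and that of withdrawal with vehicle share the −Asn vehicle libraries.

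Whether withdrawal acted differently with ISRIB than with vehicle was tested as an interaction. At 6 h 0 of the 10 genes passed in edgeR, 1 (ERRFI1) had an unadjusted p below 0.05 and DESeq2 called 0. Of all 17409 genes, 0.718% passed in edgeR and 954 had an unadjusted p below 0.05. The ERRFI1 interaction was −0.62 ± 0.23 on the log2 scale, with an interval of 95% between −1.11 and −0.12 (adjusted p = 0.608). The intervals for AREG (−1.43 to 0.39), EREG (−1.36 to 0.72) and HBEGF (−1.53 to 0.37) included 0. This fit, which leaves the replicate number out, does not show whether ISRIB altered the rise of the ligands. AREG, EREG and HBEGF passed in none of the 32 alternative settings. Within a number, the log2 withdrawal ratios with ISRIB were 0.80, 0.88 and 0.89 for HBEGF and 0.75, 0.89 and 0.82 for AREG. With vehicle they were 1.65, 1.498 and 1.28, and 1.59, 1.30 and 1.26. Those of EREG overlapped, at 0.65, 0.89 and 1.52 against 1.74, 1.40 and 1.35. Same-numbered libraries did not pair for withdrawal with ISRIB, and the ratios were not tested.

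With asparagine present, ISRIB changed 0 of the 10 genes at 24 h and 0 at 6 h in edgeR, with 0 at an unadjusted p below 0.05 and 0 called by DESeq2 at either time. The shares of all genes were 0% and 0%, with 248 genes at 24 h and 203 at 6 h having an unadjusted p below 0.05. At 6 h HBEGF had 33.6, 61.9 and 74.8 CPM in +Asn ISRIB libraries, against 32.8, 69.7 and 69.8 CPM in +Asn vehicle libraries. The groups overlapped over nearly their whole range, and the log2 change was −0.02 with an interval of 95% between −0.69 and 0.66.

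In the −Asn ISRIB libraries at 24 h ERBB3 was at its highest and BTC and EPGN at their lowest of all 8 groups, without overlap with the next group. Compared with +Asn ISRIB cells, 4 of the 10 genes passed, against 22.1% of all genes: EGFR and ERBB3 rose, and BTC and EPGN fell. Compared with −Asn vehicle cells, 3 of the 10 passed, against 21.7% of all genes: ERBB3 rose, and BTC and EPGN fell. These 2 comparisons share the −Asn ISRIB libraries, and with 10 genes neither count is read as a result about the family as a whole.

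EPGN (epigen) had 2.60, 3.25 and 2.12 CPM in −Asn ISRIB libraries at 24 h, against 5.92, 5.08 and 4.26 CPM in −Asn vehicle libraries. Every ISRIB library was lower, and the log2 change was −0.93 ± 0.22 (edgeR adjusted p = 0.00441). In +Asn ISRIB libraries it had 6.24, 4.76 and 3.74 CPM, and the log2 change of −Asn ISRIB against these was −0.89 ± 0.22 (adjusted p = 0.00521). BTC (betacellulin) had 5.35, 5.32 and 4.07 CPM in −Asn ISRIB libraries at 24 h, against 7.26, 7.75 and 6.68 CPM in −Asn vehicle libraries and 6.42, 6.53 and 8.67 CPM in +Asn ISRIB libraries. It was lower in all 3, with log2 changes of −0.55 ± 0.16 (edgeR adjusted p = 0.0175) and −0.54 ± 0.16 (0.0189). The BTC call against −Asn vehicle was lost without replicate 3 of the −Asn ISRIB group (adjusted p = 0.0918) or replicate 2 of the −Asn vehicle group (0.0532), and that against +Asn ISRIB without replicate 3 of the −Asn ISRIB group (0.0979) or of the +Asn ISRIB group (0.114). Both are low-count genes, with as few as 38 counts in a library for EPGN and 73 for BTC.

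ERBB3 had 105, 110 and 121 CPM in −Asn ISRIB libraries at 24 h, against 85.5, 88.3 and 91.1 CPM in −Asn vehicle libraries and 93.7, 86.8 and 94.5 CPM in +Asn ISRIB libraries. It was higher in each −Asn ISRIB library than in every library of both other groups, with log2 changes of 0.34 ± 0.07 against −Asn vehicle (edgeR adjusted p = 0.00249) and 0.29 ± 0.07 against +Asn ISRIB (0.00754). The call against +Asn ISRIB was lost without replicate 3 of the −Asn ISRIB group (adjusted p = 0.0623) and with no filter on low counts (0.142). EGFR had 1199, 1336 and 1126 CPM in −Asn ISRIB libraries, against 809, 857 and 855 CPM in +Asn ISRIB libraries. These were apart, with a log2 change of 0.54 ± 0.13 (edgeR adjusted p = 0.00485). Against −Asn vehicle libraries, with which it overlapped, the EGFR log2 change was 0.24 ± 0.13 (adjusted p = 0.189).

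The response of ERBB3 to ISRIB in −Asn cells differed between 24 h and 6 h. It was 0.34 ± 0.07 on the log2 scale at 24 h and −0.17 ± 0.07 at 6 h, and the difference was 0.51 ± 0.10 (edgeR adjusted p = 0.00483). ERBB3 was the only 1 of the 10 genes to pass this test, which 7.59% of all genes passed. EPGN passed it without replicate 1 of −Asn ISRIB at 6 h (adjusted p = 0.0476). The interaction of withdrawal and ISRIB at 24 h passed for 0 of the 10 genes in edgeR, against 9.06% of all genes. It had an unadjusted p below 0.05 for 3 of the 10, and for 4925 of all 17409 genes. The same 3 were called by DESeq2, which also called more of all genes than edgeR did. The values were 0.33 ± 0.10 for ERBB3 (adjusted p = 0.0533), −0.64 ± 0.22 for BTC (0.0716) and −0.83 ± 0.30 for EPGN (0.0783). EPGN passed without replicate 2 of −Asn ISRIB at 24 h (0.0492), and ERBB3 (0.0426) and BTC (0.0494) passed without replicate 3 of −Asn ISRIB at 6 h. Without the 3 GC-skewed libraries ERBB3 (0.0325) and EPGN (0.0283) passed.

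The levels were also compared between 24 h and 6 h after the medium was replaced. In cells with asparagine and vehicle, 7 of the 10 genes differed between 24 h and 6 h, against 18.8% of all genes: EGFR, AREG, EREG, HBEGF, TGFA and EPGN fell, and ERBB3 rose. In −Asn ISRIB cells all 10 differed, against 32.3% of all genes: ERBB2 and ERBB3 rose and the other 8 fell. The median log2 change of the 10 genes was −1.14 with vehicle and asparagine and −1.38 with ISRIB and without asparagine, and that of all genes was below 0.01 in both.

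HBEGF had 8.86, 9.31 and 7.40 CPM in +Asn vehicle libraries at 24 h, against 32.8, 69.7 and 69.8 CPM at 6 h. The highest value at 24 h was far below the lowest at 6 h, and the log2 change was −2.75 ± 0.35 (edgeR adjusted p = 1.67e-05). AREG had 18.5, 17.8 and 12.2 CPM at 24 h, against 62.1, 127 and 120 CPM at 6 h, a log2 change of −2.67 ± 0.33. EREG changed by −2.19 ± 0.38, TGFA by −1.47 ± 0.14, EPGN by −1.33 ± 0.19 and EGFR by −0.95 ± 0.13 on the log2 scale. In each of these 6 genes the 24 h libraries of all 4 groups lay below the 6 h libraries of all 4 groups. The share of all genes separated in this way was not counted, so the 6 are not read as particular to the family.

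TGFA, the transforming growth factor alpha ligand, had 124, 122 and 103 CPM in +Asn vehicle libraries at 24 h, against 287, 316 and 362 CPM at 6 h. EGFR had 874, 886 and 803 CPM at 24 h, against 1573, 1498 and 1883 CPM at 6 h. ERBB3 ran the other way, with 90.1, 85.7 and 96.1 CPM at 24 h, against 62.9, 61.5 and 64.2 CPM at 6 h, and a log2 change of 0.53 ± 0.07 (edgeR adjusted p = 4.41e-05). EGFR and ERBB3 thus differed in direction over time. The other 3 genes did not pass, with log2 values of −0.47 ± 0.17 for ERRFI1 (adjusted p = 0.0517), 0.31 ± 0.17 for ERBB2 (0.232) and −0.15 ± 0.16 for BTC (0.553). ERRFI1 passed without 1 of 8 libraries, with adjusted p between 0.0288 and 0.0475: replicate 1 of +Asn vehicle, replicate 1 of +Asn ISRIB, replicates 1 and 2 of −Asn vehicle and replicates 1 and 3 of −Asn ISRIB at 6 h, and replicate 3 of +Asn ISRIB and replicate 2 of −Asn ISRIB at 24 h. Without the 3 GC-skewed libraries ERRFI1 (0.0204) and ERBB2 (0.0497) passed.

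In −Asn ISRIB cells EREG had 7.63, 12.5 and 6.02 CPM at 24 h, against 58.1, 109 and 187 CPM at 6 h, a log2 change of −3.76 ± 0.40. HBEGF changed by −3.43 ± 0.36, AREG by −3.05 ± 0.33, EPGN by −2.25 ± 0.21, TGFA by −1.52 ± 0.14, ERRFI1 by −1.25 ± 0.17, BTC by −0.97 ± 0.16 and EGFR by −0.91 ± 0.13 on the log2 scale. ERBB2 had 70.1, 50.2 and 65.1 CPM at 24 h, against 43.9, 45.7 and 30.2 CPM at 6 h, and rose by 0.63 ± 0.17 (edgeR adjusted p = 0.00765). The lowest value, 30.2 CPM, is that of replicate 3, a GC-skewed library, and ERBB2 has a GC content of 57.5%. Without this library the log2 change was 0.46 ± 0.17 (adjusted p = 0.0552). The call was kept without all 3 GC-skewed libraries, at 0.47 ± 0.13 (0.00863), and with GC correction, at 0.48 ± 0.07 (1.5e-05). Whether the time comparisons in these 2 conditions differ from each other was not tested.

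**Figure D4:**
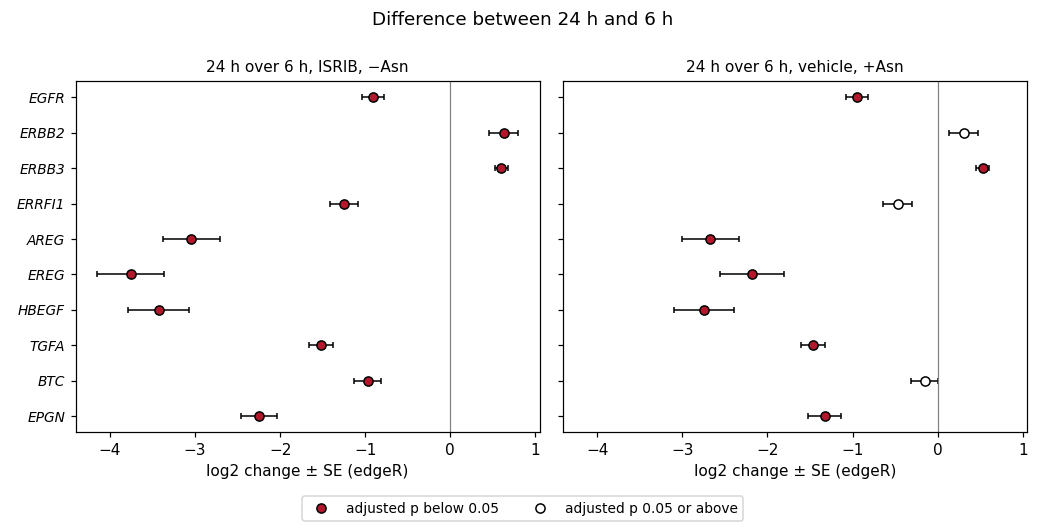
Log2 change ± SE of each gene for 24 h over 6 h (edgeR, 3 libraries a group) in −Asn ISRIB cells (left) and +Asn vehicle cells (right); filled points passed an adjusted p of 0.05. AREG, EREG and HBEGF lie furthest below 0 in both panels, and ERBB3 lies above 0 in both.

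Across all 24 libraries AREG, EREG and HBEGF had similar patterns, and BTC was less like the other ligands. The Pearson correlation of log2 CPM was 0.995 for AREG and HBEGF, 0.990 for EREG and HBEGF, 0.981 for AREG and EREG, and −0.875 for ERBB3 and EPGN. For BTC it was 0.660 with AREG, 0.690 with HBEGF, 0.657 with TGFA, 0.758 with EREG and 0.756 with EPGN. After the group means were taken away it was 0.957 for AREG and HBEGF, 0.942 for ERRFI1 and EREG, and −0.721 for ERBB3 and AREG, and for BTC it was −0.08 with AREG, −0.10 with HBEGF, 0.25 with TGFA, 0.15 with EREG and −0.03 with EPGN. BTC had between 73 and 218 counts in a library, and its highest group mean was 1.98 times the lowest. That ratio was 18.3 for AREG, 15.8 for EREG and 18.4 for HBEGF. Whether the low counts and narrow range of BTC lower its correlations was not tested. The libraries share time, medium and replicate number. Among 11551 other genes, those whose log2 CPM was most like TGFA over the 24 libraries were PTGS2 (r = 0.996, rho = 0.983), TNFAIP3 (0.995, 0.990) and ETS1 (0.992, 0.975). The genes most like HBEGF were TNFRSF10B (0.992, 0.879), RUNX1 (0.990, 0.950) and EXT1 (0.990, 0.931), those most like EREG were VGLL3, INHBA and ARHGAP42, and those most like EPGN were HEG1, F2RL1 and PREP.

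Other genes of the pathway were counted for comparison. NRG1, the neuregulin ligand of ERBB3, averaged 13.6 ± 1.68 CPM in −Asn vehicle libraries and 7.67 ± 0.19 CPM in +Asn vehicle libraries at 6 h (SD, n = 3 each), a log2 change of 0.82 ± 0.19 (edgeR adjusted p = 0.0108). Of 20 ubiquitin ligases, inhibitors and sorting factors of the receptors, 2 rose and 0 fell in this comparison, in which 4.57% of all genes passed. Both are ubiquitin ligases: RNF41 (also Nrdp1), which acts on ERBB3, changed by 0.60 ± 0.09, and CBLB, which acts on EGFR, by 0.69 ± 0.12 on the log2 scale. In −Asn cells at 6 h both were lower with ISRIB than with vehicle, by −0.54 ± 0.09 for RNF41 and −0.73 ± 0.12 for CBLB, and SOCS5 was higher by 0.57 ± 0.13. Of 23 tested genes of the signalling core, 1 rose (SOS2, 0.89 ± 0.15) and 1 fell (PLCG1, −0.66 ± 0.10) on withdrawal with vehicle at 6 h, near the 4.57% of all genes.

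Of 18 tested ERK target genes, 3 rose and 0 fell on withdrawal with vehicle at 6 h, against 4.57% of all genes. ETV5 had a log2 change of 0.98 ± 0.08 (edgeR adjusted p = 1.56e-07), DUSP6 0.83 ± 0.14 and SPRED2 0.32 ± 0.07, and the median of the list was 0.18, against 0.01 over all genes. ETV5 was the only 1 of the list that ISRIB changed in −Asn cells at 6 h, by −0.89 ± 0.08, and its interaction was −0.86 ± 0.12 (adjusted p = 0.000249). Between 24 h and 6 h, 15 of the 18 fell and 0 rose in −Asn ISRIB cells (32.3% of all genes passed), and 8 fell and 1 rose in +Asn vehicle cells (18.8%). FOSL1 changed by −2.43 ± 0.28 and −2.31 ± 0.28, and LIF by −2.36 ± 0.26 and −1.89 ± 0.26 on the log2 scale.

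Of 7 sheddases and their cofactors, 3 fell and 0 rose in −Asn ISRIB cells at 24 h against −Asn vehicle cells, in which comparison 21.7% of all genes passed. ADAM17, the main protease that releases AREG, HBEGF and TGFA, averaged 99.5 CPM in −Asn ISRIB libraries and 129 CPM in −Asn vehicle libraries, a log2 change of −0.38 ± 0.09 (edgeR adjusted p = 0.00506). ADAM10, which releases BTC, changed by −0.40 ± 0.12 (adjusted p = 0.018) and ADAM12 by −0.63 ± 0.09 (3.42e-05). All 3 also passed the interaction at 24 h. Of the 23 genes of the signalling core 5 fell and 1 rose in this comparison, near the 21.7% of all genes, with PIK3CA, a catalytic subunit of PI3K, at −0.79 ± 0.19 (adjusted p = 0.0063).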

How the data were processed

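RNA from 24 PC9 libraries was sequenced by the authors. Reads were aligned with Bowtie2 to hg38 and counted per gene with featureCounts, per the submitters' processing notes, which give no versions and also name DESeq2. The deposited table holds raw counts per gene, and a second deposited table of transformed values was not used. Counts of 37411 genes were filtered with edgeR 4.0.16 filterByExpr, scaled by TMM and fitted with a quasi-likelihood model of 8 group means (16 residual degrees of freedom, common dispersion 0.0176). P-values were adjusted by Benjamini-Hochberg over 17409 genes, with a threshold of 0.05. SEs are the log2 change divided by the square root of F. The script was tested on simulated data. Lengths and GC content come from GENCODE 29, which 36620 gene IDs matched. Log2 CPM for correlations used a prior count of 2. All 10 genes, and from each pathway list up to 3 called genes of smallest adjusted p in a comparison, could be named. The genes, lists and tests were chosen with earlier results of these data known. Same-numbered libraries deviated together (every pair's correlation over 0.1) in 3 of 10 comparisons: withdrawal with vehicle at 6 h (0.304 to 0.339) and at 24 h (0.187 to 0.350), and ISRIB without asparagine at 6 h (0.327 to 0.470). There the replicate number, whose meaning the labels do not give, pairs the samples. Replicates within a group differed by more than counting noise, with a chi-square per degree of freedom of at least 4.08. Alternatives were DESeq2 1.42.0, RLE scaling, no filter, a replicate block over all libraries, a GC correction, both of these together, and leaving out libraries.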

Additional observations from a re-analysis of the deposited data

Results flagged for a closer look

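3 results were picked out because the effect of the same contrast differed between 24 h and 6 h by a test of the difference itself. The withdrawal response with vehicle of ERRFI1 was lower at 24 h than at 6 h by a log2 difference of −1.07 ± 0.24 (edgeR adjusted p = 0.0196), and in same-numbered libraries its log2 ratio was 0.11, 0.11 and 0.27 at 24 h, against 1.17, 1.42 and 1.05 at 6 h. The withdrawal response with vehicle of ERBB3 was lower at 24 h by −0.44 ± 0.11 (adjusted p = 0.0376), and its log2 ratio was −0.08, 0.04 and −0.08 at 24 h, against 0.48, 0.41 and 0.31 at 6 h. The ISRIB response of ERBB3 in −Asn cells was higher at 24 h by 0.51 ± 0.10 (adjusted p = 0.00483), and its log2 ratio was 0.30, 0.32 and 0.41 at 24 h, against −0.19, −0.18 and −0.14 at 6 h. The 2 ERBB3 results share the −Asn vehicle libraries. Same-numbered libraries did not pair for ISRIB without asparagine at 24 h (correlations between −0.267 and 0.021). Of 32 alternative settings, the vehicle call was lost in 14 for ERBB3 and in 5 for ERRFI1. The ERBB3 call for the ISRIB response was lost in 0.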

How the results depend on the processing

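Over 32 alternative settings and 14 comparisons, 4371 of 4480 log2 changes of single genes kept their side of the threshold, 34 lost a call, 75 gained one and 0 reversed. Direction was judged for called values. RLE scaling changed no call. Withdrawal with ISRIB at 6 h, with 0 family genes called, gave 2 with DESeq2, 5 with no filter, 1 with the replicate block, 3 with GC correction, 6 with both (AREG, EREG and HBEGF among them) and 3 with replicate 1 of the 4 groups at 6 h left out. The 5 calls with no filter came with smaller SEs at similar log2 values. The SE was 0.12 against 0.31 for AREG, 0.13 against 0.35 for EREG and 0.13 against 0.32 for HBEGF. For ERBB3 the SE with no filter was larger for withdrawal with ISRIB at 24 h, 0.12 against 0.07. ISRIB without asparagine at 6 h, with 0, gave 1 with DESeq2, the replicate block, GC correction, both, or the 3 GC-skewed libraries left out, and 3 with no filter. The interaction at 24 h, with 0, gave 3 with DESeq2, 1 with no filter or the replicate block and 2 without the 3 GC-skewed libraries, and that at 6 h, with 0, gave 1 with no filter. The vehicle response between times, with 2, gave 4 with no filter (ERBB3 lost, AREG, EREG and HBEGF gained), 3 with GC correction and block (EREG gained) and 1 with replicate 1 left out. The ISRIB response between times, with 1, gave 2 with no filter. The replicate block ended no call. In the paired comparisons it added only ERRFI1 for ISRIB without asparagine at 6 h (adjusted p = 0.0442). Where the samples share only a number it added ERRFI1 for withdrawal with ISRIB at 6 h (0.0279) and for 24 h over 6 h with vehicle (0.0317), and ERBB3 for the interaction at 24 h (0.0407). In 15 of 24 libraries the own number correlated best.

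With 1 library out, between 2 and 5 family genes were called for withdrawal with vehicle at 6 h, 0 and 2 with ISRIB at 6 h, 2 and 4 with ISRIB at 24 h, 0 and 1 for ISRIB without asparagine at 6 h, 2 and 3 at 24 h, 0 and 2 for the interaction at 24 h, 7 and 8 for time with vehicle, 9 and 10 for time with ISRIB, 0 and 2 for the vehicle response between times, and 1 and 2 for the ISRIB response between times. The other 4 comparisons had 0. The cause was not tested.

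GC correction moved the split of called genes into higher and lower: 1029 and 779 (576 and 219 without) for withdrawal with vehicle at 6 h, 488 and 573 (96 and 285) for ISRIB without asparagine at 6 h, 69 and 223 (10 and 115) for the interaction at 6 h, and 278 and 441 (34 and 179) for the vehicle response between times. Counts over all genes that moved by over 1.5 times follow. Withdrawal with vehicle at 6 h (795) gave 1808 with GC correction, 2192 with both, 1924 without the GC-skewed libraries, 365 without replicate 1, and at least 479 with 1 library out. Withdrawal with vehicle at 24 h (1) gave 5 with DESeq2, 186 with no filter and 8 with both. Withdrawal with ISRIB at 6 h (400) gave 695, 1431, 1786 and 261 with DESeq2, GC correction, both and replicate 1 out, and at least 188 with 1 library out. At 24 h (3855) it gave 5956 with GC correction, 6504 with both, and at least 2415 with 1 library out. ISRIB without asparagine at 6 h (381) gave 1061, 1401, 632 and 197 with GC correction, both, GC-skewed out and replicate 1 out, and at least 245 with 1 library out. At 24 h (3778) it gave 5832 with both, 6456 without the GC-skewed libraries, and at least 2073 with 1 library out. ISRIB with asparagine (0 and 0) gave 8 at 24 h and 7 at 6 h with no filter. The interaction at 6 h (125) gave 292, 394 and 50 with GC correction, both and replicate 1 out. At 24 h (1577) it gave 2432, 2556, 3013 and 3642 with DESeq2, no filter, GC correction and both, and between 806 and 2507 with 1 library out. Time with vehicle (3275) gave 5572, 6059 and 5203 with GC correction, both and GC-skewed out, and at least 2109 with 1 library out. The vehicle response between times (213) gave 354, 719, 1012, 491 and 131 with DESeq2, GC correction, both, GC-skewed out and replicate 1 out. The ISRIB response between times (1322) gave 2185, 2800, 3454 and 716 with no filter, GC correction, both and replicate 1 out, and between 674 and 2024 with 1 library out. Depth limits BTC (down to 73 counts) and EPGN (38).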
